A study of Mus musculus with 8 samples.

Results

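Chemokines and their receptors were measured in mouse colon adenomas of 2 genetic origins and in non-adenoma colon. The gene set comprised every protein-coding row of the deposited count table whose symbol named a CC or CXC ligand, a CC or CXC receptor, Cx3cl1, Cx3cr1, Xcl1, Xcr1 or Ackr3. It held 56 of 31189 rows. Of these, 52 passed edgeR's filter on low counts and were tested (34 ligands and 18 receptors). Ccl26 and Ccl27b had no count in any library, and Cxcl17 and Cxcr1 stayed below the filter. The first model was the ApcMin/+ mouse on C57BL/6J, which carries a mutant Apc allele; tissue was taken at an age of 110 to 120 days. The second used C57BL/6J mice without that allele, 6 to 7 weeks old when given the carcinogen azoxymethane (AOM) at 10 mg/kg. They then drank 2% dextran sulfate sodium (DSS), a mucosal irritant, in 3 cycles, and tissue was taken on day 70 from the AOM dose. By the labels' account, adenomas of the AOM/DSS model kept wild-type Apc and carried a degradation-resistant β-catenin, altered between codons 32 and 41. Each model gave 3 adenomas and 1 section of non-adenoma colon, and both sections came from mice that carried the mutation or had received the treatment, so no untreated wild-type colon was among the 8 libraries.

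Chemokines are small secreted proteins, a few of them membrane-tethered, that guide the movement of leukocytes through G protein-coupled receptors. In the colon, epithelial ligands such as CCL20, CCL25 and CCL28 draw lymphocytes and antibody-secreting cells, stromal CXCL12 and lymphoid CCL19, CCL21 and CXCL13 position lymphocytes, and CXC ligands with an ELR motif draw neutrophils in injury and inflammation. The receptors are carried mostly by the leukocytes that respond, so their transcripts in whole tissue follow both the number of those cells and the transcript level per cell.

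Levels are given as CPM, counts scaled to library size multiplied by the library's factor from edgeR's TMM scaling. That factor was 0.844 for the ApcMin/+ section, 0.962 for the AOM/DSS section and 0.993 to 1.06 for the adenomas. A smaller factor gives a higher CPM for the same count and library size. Libraries held 18156741 to 22719895 counts. The summed CPM of 9 epithelial markers was 11189 in the ApcMin/+ section and 5960, 7251 and 8697 in its adenomas, and 10946 in the AOM/DSS section and 7885, 6925 and 7154 in its adenomas, and 4 of the 9 fell over both models. That of 7 smooth muscle markers went from 6290 in the ApcMin/+ section to 615, 659 and 1826 in its adenomas, and from 8839 in the AOM/DSS section to 445, 405 and 242. AOM/DSS adenoma 2 stood apart. Its 8 B cell markers summed to 504 CPM, against 59.0 and 51.6 in adenomas 1 and 3 of that model, 5.85 to 14.8 in the ApcMin/+ adenomas, and 93.0 and 75.0 in the ApcMin/+ and AOM/DSS sections. This library held the highest value of its group for 42 of the 52 chemokine genes tested (80.8%), while it held the highest value for 36.2% of all genes tested. It did so for 16 of the 18 receptors, all but Ackr3 and Ccr3. Calls of members are given with and without it. Most values of members not called, and counts over marker and other gene lists, are given with it only.

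**Figure D1:**
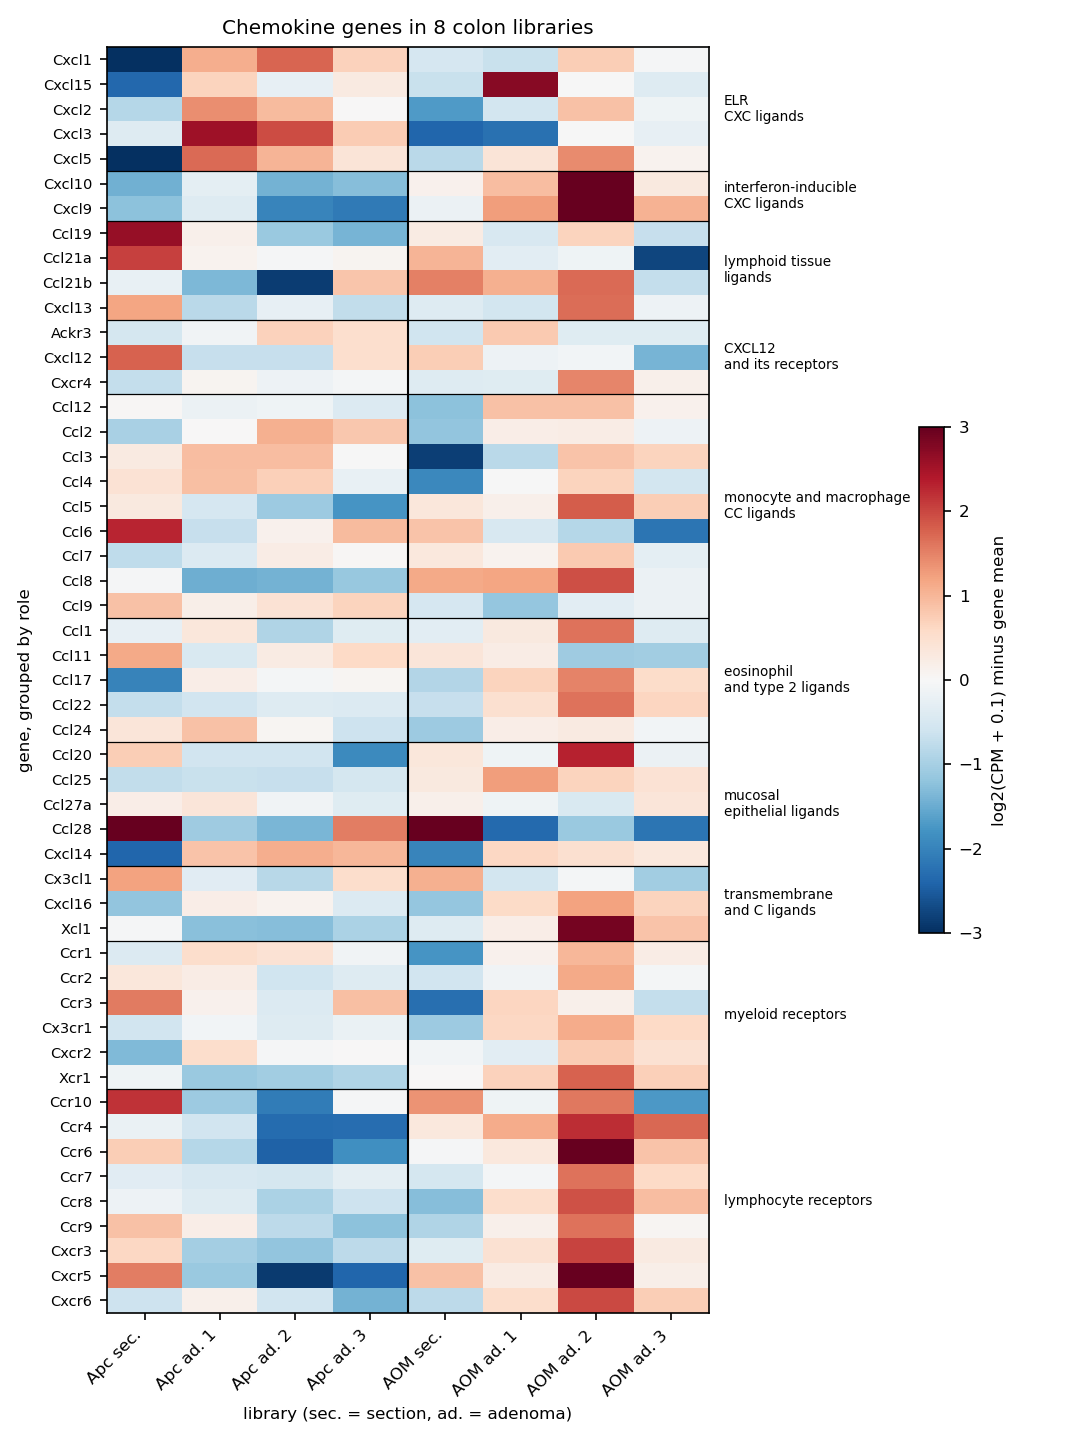
Level of 51 of the 52 tested chemokine genes in each of the 8 libraries, as log2(CPM + 0.1) minus the mean of the gene over the libraries (red above, blue below, colour saturated at ± 3). Rows are grouped by role. The column of AOM/DSS adenoma 2 is red for most receptors, and Cxcl1 and Cxcl5 are red in all 3 ApcMin/+ adenomas.

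Differences were called with edgeR's quasi-likelihood test at a Benjamini-Hochberg adjusted p under 0.05 over all 17218 genes tested. All adjusted p-values below come from this test unless another tool is named. In the ApcMin/+ adenomas, 5 of the 52 members (9.62%) were called against the section, while 16.4% of all genes were called; 4 were higher (10.1% of all genes) and 1 lower (6.35%). In the AOM/DSS adenomas 5 members (9.62%) were called against the section, beside 5.01% of all genes; 4 were higher (2.38% of all genes) and 1 lower (2.63%). Between the adenomas of the models 14 members (26.9%) were called, beside 18.1% of all genes, of which 13 were higher in AOM/DSS (10.2% of all genes) and 1 lower (7.90%). A fit of both models together called 11 members (21.2%) between adenomas and sections, beside 34.1% of all genes; 6 were higher in adenomas (18.3% of all genes) and 5 lower (15.8%). By edgeR's test with all libraries, the members' share was thus below that of all genes for ApcMin/+ and for both models together. It was above that of all genes for AOM/DSS and between the models. The median log2 fold change of the members was -0.15 in ApcMin/+ adenomas against section, where the median of all genes was 0.03, and 1.36 in AOM/DSS adenomas against section, where it was 0.14. Without AOM/DSS adenoma 2 the median in AOM/DSS was 0.82 for the members and 0.10 for all genes. Between the adenomas the members' median was 0.80 (AOM/DSS minus ApcMin/+) and that of all genes -0.01. The test of the difference between the adenoma changes called no member (0 of 52) and no gene (0 of 17218, 0%). At an unadjusted p under 0.05 that test held 13 members and 1369 of all genes. DESeq2 called 2 members there, Cxcl1 (log2 difference -3.79, adjusted p = 0.0109) and Cxcl5 (-3.83, adjusted p = 0.000934), both with the smaller rise in AOM/DSS.

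These counts, and the share of all genes called, moved with single libraries. For ApcMin/+ adenomas against section, the 5 members called became 2, 1 and 9 without ApcMin/+ adenoma 1, 2 and 3, beside 2.32%, 2.06% and 25.8% of all genes. They became 3, 8 and 4 without AOM/DSS adenoma 1, 2 and 3, which enter through the shared estimate of the spread, beside 9.22%, 15.8% and 9.04%. The 8 members (15.7% of 51) without AOM/DSS adenoma 2 were close to the share of all genes, as were the 2 members (3.85%) without ApcMin/+ adenoma 1. For AOM/DSS adenomas against section, the 5 became 1, 1 and 6 without ApcMin/+ adenoma 1, 2 and 3, beside 0.769%, 0.0816% and 12% of all genes, and 0, 2 and 1 without AOM/DSS adenoma 1, 2 and 3, beside 0%, 1.76% and 0.105%. The 6 members (11.5%) were close to the share of all genes. For the comparison between adenomas, the 14 became 2, 0 and 6 without ApcMin/+ adenoma 1, 2 and 3, beside 7.77%, 4.54% and 12.6% of all genes. The members' share was below it without ApcMin/+ adenoma 1 (3.85%) or 2 (0%) and close to it without adenoma 3 (11.5%). The 14 became 12, 7 and 11 without AOM/DSS adenoma 1, 2 and 3, beside 10.7%, 11.8% and 11.9%. The members' share was above it without AOM/DSS adenoma 1 (23.1%) or 3 (21.2%) and close to it without adenoma 2 (13.7%). For both models together, the 11 became 5 without either section, beside 5.15% of all genes without the ApcMin/+ section and 16.5% without the AOM/DSS section, where 5 members are 9.62%. They became 7 without ApcMin/+ adenoma 1 or 2 and between 10 and 14 without any other adenoma, each a smaller share than that of all genes (25.5% to 34.7%). No called member changed direction in any of these refits.

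**Figure D2:**
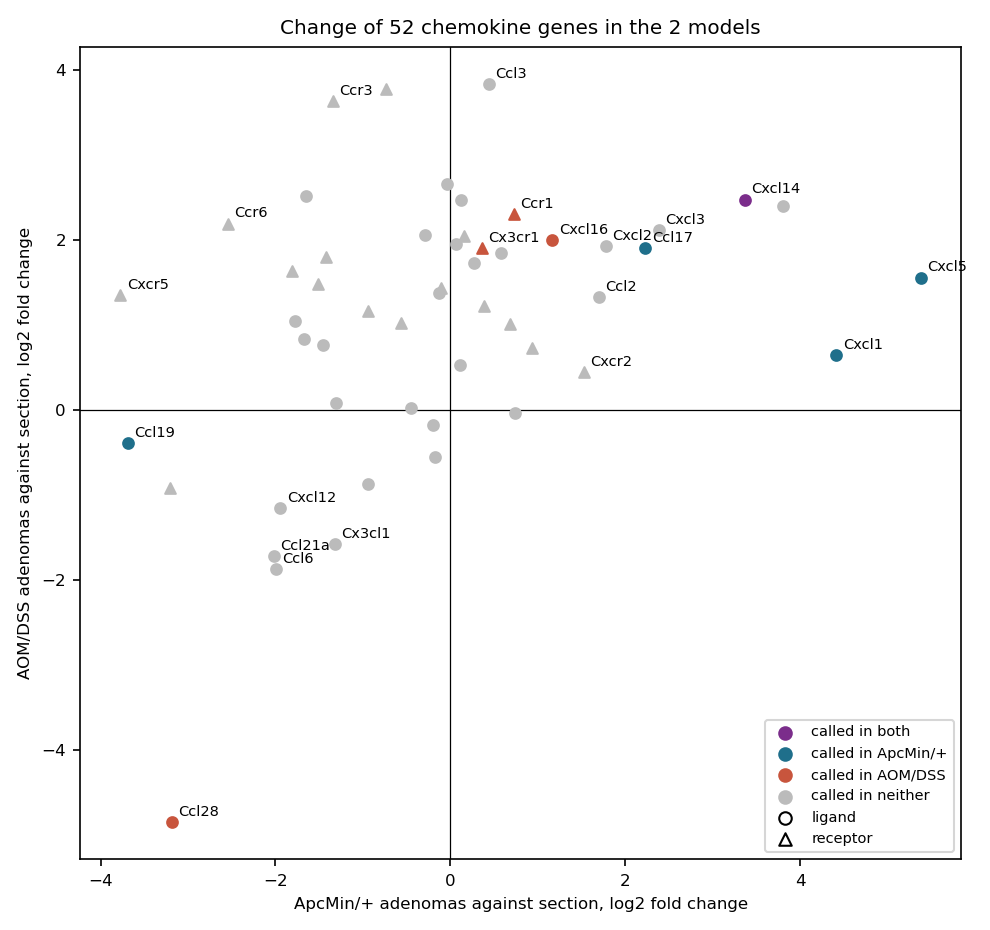
Log2 fold change of adenomas against the section of the same model for the 52 tested chemokine genes, ApcMin/+ on the x axis and AOM/DSS on the y axis. Colour marks the calls and shape tells ligands (circles) from receptors (triangles). Cxcl14 (3.37 and 2.48) is called in both models, and 17 of the 18 receptors lie above 0 on the y axis and 11 below 0 on the x axis.

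The ELR CXC ligands, which act on the neutrophil receptor CXCR2, had higher mean CPM in ApcMin/+ than in AOM/DSS adenomas for Cxcl1, Cxcl2, Cxcl3 and Cxcl5 and a lower one for Cxcl15, with no call between the adenomas. Cxcl5 was at 3.32 CPM in the ApcMin/+ section and at 205, 128 and 83.1 in its adenomas. In AOM/DSS it was at 36.1 in the section and at 82.2, 169 and 67.8 in the adenomas. All 6 adenomas were above their section, the ranges of the adenomas of both models overlapped, and the AOM/DSS section was above the ApcMin/+ section. The rise in ApcMin/+ was 5.38 ± 0.90 (log2 fold change ± SE, adjusted p = 0.0202), the largest called log2 fold change among the members, and was lost only without ApcMin/+ adenoma 2 (adjusted p = 0.0600). In AOM/DSS the change was 1.56 ± 0.68 (adjusted p = 0.181).

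Cxcl1, encoding the KC chemokine, was at 0.860 CPM in the ApcMin/+ section and at 16.5, 26.2 and 12.6 in the adenomas. It was at 5.40 in the AOM/DSS section and at 4.85, 13.0 and 7.51 in the adenomas. The ApcMin/+ adenomas lay far above their section, whereas the AOM/DSS adenomas spanned theirs. The ApcMin/+ rise was 4.41 ± 0.83 (adjusted p = 0.0252), and was not called without ApcMin/+ adenoma 1 or 2, where the adjusted p reached 0.0644. For AOM/DSS the log2 fold change was 0.64 ± 0.63 (adjusted p = 0.522).

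Cxcl2, encoding MIP-2, was at 6.71 CPM in the ApcMin/+ section and 32.6, 23.9 and 12.4 in the adenomas, and at 3.70 in the AOM/DSS section and 8.41, 22.8 and 11.3 in the adenomas. Each adenoma was above its section, and the adenomas of the models overlapped. Over both models Cxcl2 rose by 1.85 ± 0.51 (adjusted p = 0.0272), a call that was lost without ApcMin/+ adenoma 1 or 2 or without either section (highest adjusted p = 0.148). Cxcl3, another CXCR2 ligand, was at 1.49 CPM in the ApcMin/+ section and 12.1, 7.98 and 3.43 in the adenomas, but at 0.300 in the AOM/DSS section and 0.343, 1.97 and 1.66 in the adenomas. Every ApcMin/+ adenoma was above every AOM/DSS adenoma, with a log2 difference (AOM/DSS minus ApcMin/+) of -2.56 ± 0.72 that missed the threshold (adjusted p = 0.0510). Cxcl15, first described in mouse lung, was at 0.0573 CPM in the ApcMin/+ section, which was 1 count, and at 1.18, 0.576 and 0.870 in the adenomas. The ratio of the summed adenoma counts to that count was 15.2, with an exact 95% counting interval of 2.63 to 612. It was at 0.400 in the AOM/DSS section and at 5.19, 0.694 and 0.512 in the adenomas, and was called in no comparison.

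Cxcl3, Cxcl15, Cxcl1 and Cxcl2 are successive protein-coding neighbours in the RefSeq annotation. All 4 were above the section in all 3 ApcMin/+ adenomas, as were 41.3% of all genes tested. Cxcl2, Cxcl3 and Cxcl15 were also above the section in all 3 AOM/DSS adenomas, as were 41.2% of all genes. The promoters of Cxcl1, Cxcl2 and Cxcl3 were chosen by gene for display, and are 3 of the 6 members that held the motif searched for. The 250 bases before each RefSeq start (GRCm38.p6) were searched on both strands for GGGAA, N (any base) and TTCC in a row, a site of the NF-κB type, and the motif was found in 90 of 27025 genes with an entry (0.333%). Among the 56 members 42 had an entry and 6 held the motif, Ccl1, Ccr3, Cxcl1, Cxcl10, Cxcl2 and Cxcl3. Cxcl15 has an entry and held no match in this window. The windows below are 100 bases long and end at the start. They lie on the plus strand at chr5:90891145-90891244 for Cxcl1, chr5:90903799-90903898 for Cxcl2 and chr5:90786001-90786100 for Cxcl3. Capitals mark the 11 bases covered by overlapping matches on the plus and minus strands.
Cxcl1: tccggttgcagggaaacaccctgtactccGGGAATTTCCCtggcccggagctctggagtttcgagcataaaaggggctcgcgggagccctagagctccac
Cxcl2: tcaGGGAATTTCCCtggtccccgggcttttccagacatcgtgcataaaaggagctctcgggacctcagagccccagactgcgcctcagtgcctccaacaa
Cxcl3: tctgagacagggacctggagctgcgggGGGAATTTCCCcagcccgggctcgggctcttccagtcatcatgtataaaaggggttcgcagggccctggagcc
The 11 capital bases were the same letters in all 3 promoters and began 71 bases before the start of Cxcl1, 97 before that of Cxcl2 and 73 before that of Cxcl3. A match describes the letters only. Factor binding was not measured here.

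The receptor of these ligands, Cxcr2, was at 4.70 CPM in the ApcMin/+ section and 17.0, 11.7 and 12 in the adenomas, and at 11.2 in the AOM/DSS section and 9.53, 20.2 and 16.3 in the adenomas. All ApcMin/+ adenomas were above their section (log2 fold change 1.53 ± 0.49, adjusted p = 0.0725), while the AOM/DSS adenomas spanned theirs (0.45 ± 0.45, adjusted p = 0.533). Neither change was called. Neutrophil markers are given beside these genes. The 10 neutrophil markers summed to 129 CPM in the ApcMin/+ section and 350, 234 and 216 in its adenomas, and to 170 in the AOM/DSS section and 72.0, 189 and 123 in its adenomas. In ApcMin/+, 4 of the 10 rose (S100a8, S100a9, Csf3r and Clec4d) and none fell, and the median log2 fold change was 2.51 with 9 of 10 positive. In AOM/DSS none of the 10 was called, 7 had an unadjusted p under 0.05 in edgeR's test, and the median was 2.16 with 8 of 10 positive. The marker with the highest CPM in both sections, Ly6g, was below the section in all 6 adenomas. Fewer or more cells of a type and less or more RNA per cell cannot be told apart in whole tissue, and the part of neutrophil number in these results was not tested. Ppbp, a platelet CXC ligand outside the gene set that also acts on CXCR2, was at 0.573 CPM in the ApcMin/+ section and 10.2, 10.2 and 4.85 in the adenomas (3.86 ± 0.94, adjusted p = 0.0402). It had no count in the AOM/DSS section and was at 0.257, 0.267 and 0.810 in those adenomas. Between the adenomas Ppbp was called lower in AOM/DSS (-4.21 ± 0.59, adjusted p = 0.00883).

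Among 20 genes of NF-κB and of cytokines that induce chemokines, 5 rose in ApcMin/+ adenomas (Il1a, Il1b, Tnf, Rela and Bcl3), none fell, and the median log2 fold change was 0.69. In AOM/DSS adenomas 1 of the 20 rose, Nfkb1, with a median of 1.14. Tnf, an inflammatory cytokine, was at 1.78 CPM in the ApcMin/+ section and 15.3, 14.1 and 6.87 in the adenomas, and at 7.06 in the AOM/DSS section and 16.8, 25.2 and 25.2 in the adenomas. Il1b was at 15.6 CPM in the ApcMin/+ section and 75.3, 68.7 and 48.7 in the adenomas (2.04 ± 0.50, adjusted p = 0.0409), and at 8.46 in the AOM/DSS section and 28.0, 62.1 and 39.8 in the adenomas (2.35 ± 0.51, adjusted p = 0.0510). Over both models together 9 of the 20 rose. Between the adenomas 9 were higher in AOM/DSS and 1 was lower, Il6, at 1.27, 5.27 and 1.14 CPM in the ApcMin/+ adenomas and 0.129, 0.0534 and 0.0426 in the AOM/DSS adenomas, each of the latter at 3 counts or fewer.

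**Figure D3:**
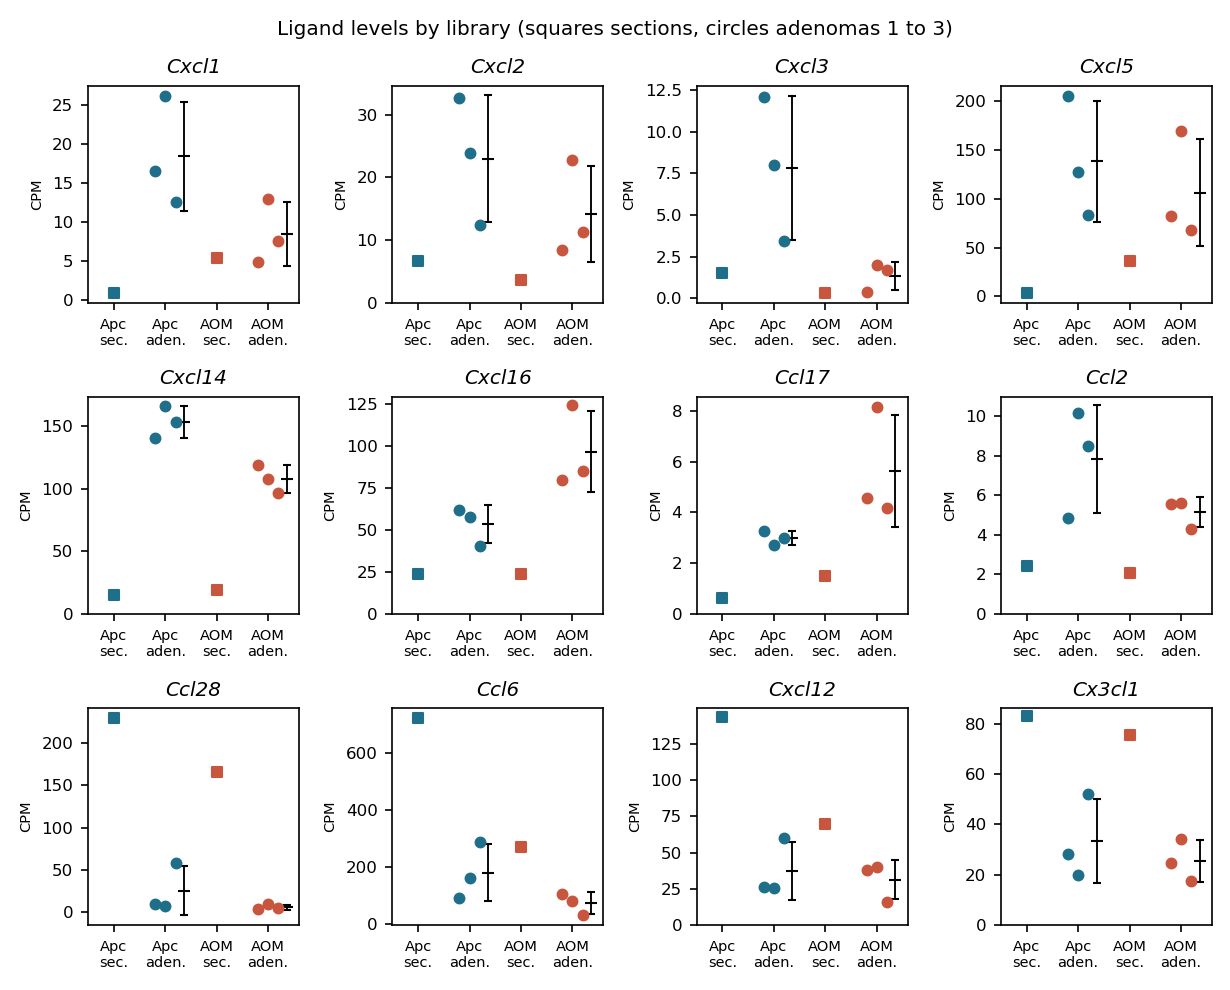
CPM of 12 ligands in each library (blue ApcMin/+, red AOM/DSS, squares sections, circles adenomas 1 to 3 from left to right, black mean ± SD of 3 adenomas). Cxcl14 and Cxcl16 lie above the section in all 6 adenomas, Ccl28, Ccl6, Cxcl12 and Cx3cl1 below it, and Cxcl1 and Cxcl5 start from a lower section value in ApcMin/+.

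The mucosal epithelial ligands moved in opposite directions. Cxcl14, a ligand made by many epithelia, was at 14.8 CPM in the ApcMin/+ section and at 141, 166 and 153 in its adenomas. It was at 19.4 in the AOM/DSS section and at 119, 108 and 96.3 in the adenomas. The sections were close, no adenoma came near them, and the lowest ApcMin/+ adenoma was above the highest AOM/DSS adenoma. Cxcl14 rose by 3.37 ± 0.22 in ApcMin/+ (adjusted p = 0.00652), by 2.48 ± 0.20 in AOM/DSS (adjusted p = 0.0139) and by 2.89 ± 0.24 over both models (adjusted p = 0.00444). The ApcMin/+ call and the call over both models held in each of 15 and 16 alternatives, the only member calls that did. The AOM/DSS call was lost only without AOM/DSS adenoma 1 (adjusted p = 0.0519). Between the adenomas Cxcl14 was lower in AOM/DSS by a log2 difference of -0.51 ± 0.12 (adjusted p = 0.0344), a call that held in 1 of 6 refits without an adenoma, the one without AOM/DSS adenoma 1, with adjusted p-values up to 0.126 over the alternatives.

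Ccl28, an epithelial ligand of CCR10 and CCR3 that draws IgA-secreting cells to the colon, went the other way. It was at 230 CPM in the ApcMin/+ section and 9.62, 7.67 and 58.7 in the adenomas, and at 166 in the AOM/DSS section and 3.90, 9.23 and 4.31 in the adenomas. All 6 adenomas were below their section, and ApcMin/+ adenoma 3 stood above the other 5. Ccl28 fell by 4.85 ± 1.04 on the log2 scale in AOM/DSS (adjusted p = 0.0499), a call that held only in the refit without ApcMin/+ adenoma 3 among the 6 without an adenoma. It fell by 4.11 ± 0.75 over both models (adjusted p = 0.00870), which held in 7 of 8 refits without a library, all but the one without the AOM/DSS section (adjusted p = 0.0703). In ApcMin/+ alone the change was -3.18 ± 1.01 (adjusted p = 0.0688). ApcMin/+ adenoma 3 was also the adenoma with the highest smooth muscle sum, 1826 CPM, and the part of remaining colon wall in its value was not tested. Ccr10, a receptor of CCL28 on antibody-secreting cells, was at 5.22 CPM in the ApcMin/+ section and 0.454, 0.177 and 1.05 in the adenomas, and at 2.90 in the AOM/DSS section and 0.987, 3.41 and 0.256 in the adenomas. It was lower than the section in all 3 ApcMin/+ adenomas and in 2 of the 3 AOM/DSS adenomas, without a call in either model (-3.21 ± 1.21, adjusted p = 0.103, and -0.91 ± 1.25, adjusted p = 0.651). Over both models Ccr10 was called lower without AOM/DSS adenoma 2 (-2.77 ± 0.68, adjusted p = 0.0240) and not with all libraries (-2.24 ± 0.95, adjusted p = 0.104). The 5 plasma cell markers in the table summed to 2947 CPM in the ApcMin/+ section and 1004, 909 and 1028 in its adenomas, and to 1155 in the AOM/DSS section and 1137, 3079 and 963 in its adenomas.

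Ccl20, the epithelial ligand of CCR6, was at 7.39 CPM in the ApcMin/+ section and 2.91, 2.92 and 1.10 in the adenomas, and at 5.60 in the AOM/DSS section and 4.03, 22.1 and 3.88 in the adenomas. The ApcMin/+ adenomas were below their section, and AOM/DSS adenoma 2 alone was above its own. No Ccl20 change was called. Ccl25, the ligand of the gut-homing receptor CCR9, was at 2.35 CPM in the ApcMin/+ section and 2.45, 2.44 and 2.75 in the adenomas, and at 4.90 in the AOM/DSS section and 9.57, 6.35 and 5.37 in the adenomas. Every AOM/DSS library, the section included, was above every ApcMin/+ library. Ccl25 was higher in AOM/DSS than in ApcMin/+ adenomas by 1.48 ± 0.29 (adjusted p = 0.0205), which was lost without ApcMin/+ adenoma 1 or 2 (highest adjusted p over the alternatives 0.0908) and held without AOM/DSS adenoma 2 (1.55 ± 0.32, adjusted p = 0.0370). Ccr9 was at 3.73 CPM in the ApcMin/+ section and 2.27, 1.11 and 0.778 in the adenomas, and at 1.00 in the AOM/DSS section and 2.19, 6.30 and 2.05 in the adenomas, without a call. Ccl27a, a ligand of CCR10 as well, was at 4.70 CPM in the ApcMin/+ section and 5.31, 3.81 and 3.16 in the adenomas, and at 4.55 in the AOM/DSS section and 3.73, 2.99 and 5.33 in the adenomas. Its groups overlapped. Its near-identical copy Ccl27b had no count, so the reads of the pair cannot be told apart with certainty.

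The transmembrane ligands also diverged. Cxcl16, a membrane-bound ligand of CXCR6, was at 23.8 CPM in the ApcMin/+ section and 61.9, 57.6 and 40.7 in the adenomas, and at 24.1 in the AOM/DSS section and 80.1, 124 and 85.2 in the adenomas. The sections were alike in level, all adenomas were above them, and all AOM/DSS adenomas were above all ApcMin/+ adenomas. Cxcl16 rose over both models by 1.56 ± 0.29 (adjusted p = 0.00887), which held in 7 of 8 refits without a library, all but the one without the AOM/DSS section (adjusted p = 0.0622). Its rise in AOM/DSS was 2.00 ± 0.37 (adjusted p = 0.0383), held only without ApcMin/+ adenoma 3 among 6 refits without an adenoma (highest adjusted p over the alternatives 0.0822). The log2 difference between the adenomas was 0.85 ± 0.23 (adjusted p = 0.0448) and was lost in each of the 6 (highest adjusted p over the alternatives 0.113). Cx3cl1, fractalkine, was at 82.9 CPM in the ApcMin/+ section and 28.1, 19.9 and 51.8 in the adenomas, and at 75.4 in the AOM/DSS section and 24.5, 34.1 and 17.4 in the adenomas. It was below the section in all 6 adenomas. Over both models it fell by 1.45 ± 0.35 on the log2 scale (adjusted p = 0.0176), and the call was lost without either section (highest adjusted p = 0.116).

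Cx3cr1, the fractalkine receptor of intestinal macrophages, did not move with its ligand. It was at 14.3 CPM in the ApcMin/+ section and 20.1, 16.4 and 18.7 in the adenomas, and at 10.0 in the AOM/DSS section and 33.3, 46.5 and 32.7 in the adenomas. All adenomas were above their section, and all AOM/DSS adenomas were above all ApcMin/+ adenomas. The rise in AOM/DSS was 1.90 ± 0.29 (adjusted p = 0.0309), which held without ApcMin/+ adenoma 3 and without AOM/DSS adenoma 2 but in none of the other 4 such refits (highest adjusted p over the alternatives 0.0669). Between the adenomas the log2 difference was 1.03 ± 0.18 (adjusted p = 0.0159), which held in 5 of 6 refits without an adenoma, all but the one without ApcMin/+ adenoma 2 (highest adjusted p over the alternatives 0.0742), and was 0.85 ± 0.15 without AOM/DSS adenoma 2 (adjusted p = 0.0268). Cxcr6, the CXCL16 receptor of T cells, was at 2.92 CPM in the ApcMin/+ section and 5.08, 3.01 and 1.65 in the adenomas, and at 2.60 in the AOM/DSS section and 6.57, 18.2 and 7.68 in the adenomas. The AOM/DSS adenomas were above the ApcMin/+ adenomas with no overlap, and the log2 difference was not called (1.73 ± 0.55, adjusted p = 0.0714). Without AOM/DSS adenoma 2 the difference was 1.13 ± 0.47 (adjusted p = 0.167).

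The ligands of monocytes and macrophages held the most abundant members and showed no common direction. Per transcript length, Ccl6, which acts on CCR1, had the highest level of all members in both sections, at 842 FPKM (fragments scaled to transcript length and library size, the authors' values less 1) in ApcMin/+ and 316 in AOM/DSS. In CPM it was at 723 in the ApcMin/+ section and 91.4, 162 and 289 in the adenomas, and at 269 in the AOM/DSS section and 107, 82.7 and 32.4 in the adenomas. Only ApcMin/+ adenoma 3 exceeded the AOM/DSS section, and each adenoma was below its own section. Ccl6 fell by 1.93 ± 0.46 on the log2 scale over both models (adjusted p = 0.0175), and the call was lost without either section (highest adjusted p = 0.133). Ccl9, its genomic neighbour and also a CCR1 ligand, was at 31.2 CPM in the ApcMin/+ section and 19.0, 22.6 and 27.0 in the adenomas, and at 11.8 in the AOM/DSS section and 7.51, 13.6 and 15 in the adenomas. It was lower in all AOM/DSS libraries than in any ApcMin/+ library, without a call between the adenomas (-0.93 ± 0.28, adjusted p = 0.0644).

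Ccl8, encoding MCP-2, had the highest FPKM of all members in the AOM/DSS adenomas, 180 ± 111 (SD, n = 3), against 29.1 ± 3.32 (SD, n = 3) in the ApcMin/+ adenomas. In CPM it was at 11.8 in the ApcMin/+ section and 4.31, 4.43 and 5.45 in the adenomas, and at 26.7 in the AOM/DSS section and 27.5, 46.3 and 10.8 in the adenomas. The AOM/DSS adenomas were above the ApcMin/+ adenomas and spanned the AOM/DSS section. The log2 difference between the adenomas was 2.57 ± 0.50 (adjusted p = 0.0199). With AOM/DSS adenoma 2 left out it was 2.02 ± 0.40 (adjusted p = 0.0327). The call was lost without ApcMin/+ adenoma 1 or 2 (highest adjusted p over the alternatives 0.0846).

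Ccl2, encoding the monocyte attractant MCP-1, was at 2.41 CPM in the ApcMin/+ section and 4.86, 10.1 and 8.52 in the adenomas, and at 2.05 in the AOM/DSS section and 5.58, 5.60 and 4.31 in the adenomas. All 6 adenomas were above both sections. Ccl2 rose by 1.51 ± 0.35 over both models (adjusted p = 0.0161), and the call was lost without either section (highest adjusted p = 0.138). Its receptor Ccr2 was at 19.1 CPM in the ApcMin/+ section and 17.4, 9.97 and 11.4 in the adenomas, and at 10.1 in the AOM/DSS section and 14.1, 33.3 and 14.5 in the adenomas. The adenomas were below the section in ApcMin/+ and above it in AOM/DSS, and neither change was called (adjusted p = 0.484 and 0.290). The other CCR2 ligands were not called. Ccl7 was at 2.92 CPM in the ApcMin/+ section and 3.72, 5.85 and 5.13 in the adenomas, and at 6.21 in the AOM/DSS section and 5.41, 8.75 and 4.05 in the adenomas. Ccl12 was at 1.60 CPM in the ApcMin/+ section and 1.36, 1.42 and 1.14 in the adenomas, and at 0.600 in the AOM/DSS section and 2.96, 2.93 and 1.71 in the adenomas. Ccl7 overlapped between the models, whereas Ccl12 was higher in every AOM/DSS adenoma than in any ApcMin/+ adenoma.

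Ccl3, Ccl4 and Ccl5 are inflammatory ligands made by macrophages and lymphocytes. Ccl3 was at 2.01 CPM in the ApcMin/+ section and 3.27, 3.24 and 1.65 in the adenomas, and at 0.150 in the AOM/DSS section, which was 3 counts, and 0.901, 3.09 and 2.69 in the adenomas. The ratio of summed AOM/DSS adenoma counts to the section was 14.4 (exact 95% counting interval 4.84 to 70.9), and the fitted change was not called (adjusted p = 0.0753). Ccl4 was at 1.43 CPM in the ApcMin/+ section and 2.04, 1.77 and 0.870 in the adenomas, and at 0.200 in the AOM/DSS section and 1.03, 1.71 and 0.682 in the adenomas. Both ligands overlapped between the adenomas of the models. Ccl5, RANTES, a product of T and NK cells, was at 1.66 CPM in the ApcMin/+ section and 0.908, 0.576 and 0.321 in the adenomas, and at 1.70 in the AOM/DSS section and 1.5, 4.91 and 2.30 in the adenomas. It was higher in AOM/DSS than in ApcMin/+ adenomas by 2.26 ± 0.60 (adjusted p = 0.0445), and not called without AOM/DSS adenoma 2 (1.65 ± 0.53, adjusted p = 0.0975). That call held in 1 of 6 refits without an adenoma, the one without AOM/DSS adenoma 1.

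Ccr1, a receptor of monocytes and macrophages, was highest in AOM/DSS adenoma 2. It was at 11.6 CPM in the ApcMin/+ section and 22.2, 21.1 and 14.5 in the adenomas, and at 4.45 in the AOM/DSS section and 16.9, 31.0 and 18 in the adenomas. All adenomas were above their section and the models overlapped. Ccr1 rose by 2.30 ± 0.49 in AOM/DSS (adjusted p = 0.0488; held only without ApcMin/+ adenoma 3 among 6 refits without an adenoma, highest adjusted p over the alternatives 0.0927). Over both models it rose by 1.40 ± 0.44 (adjusted p = 0.0417), a call lost without adenoma 1 or 2 of ApcMin/+, without adenoma 1 or 3 of AOM/DSS and without the AOM/DSS section (highest adjusted p = 0.263). The 11 monocyte and macrophage markers in the table summed to 836 CPM in the ApcMin/+ section and 1063, 906 and 852 in its adenomas, and to 641 in the AOM/DSS section and 959, 2029 and 1356 in its adenomas. The part of macrophage number in the Ccr1 result was not tested.

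Among ligands of eosinophils and type 2 responses, Ccl17 and Ccl22 share the receptor CCR4. Ccl17 was at 0.631 CPM in the ApcMin/+ section and 3.27, 2.70 and 2.98 in the adenomas, and at 1.5 in the AOM/DSS section and 4.55, 8.16 and 4.18 in the adenomas. All adenomas were above their section and the AOM/DSS adenomas were above the ApcMin/+ adenomas. It rose by 2.05 ± 0.38 over both models (adjusted p = 0.00874), which was lost only without the ApcMin/+ section (adjusted p = 0.0772). The ApcMin/+ rise alone was 2.23 ± 0.58 (adjusted p = 0.0457) and was lost without ApcMin/+ adenoma 1 or 2 as well as without adenoma 1 or 3 of AOM/DSS (highest adjusted p over the alternatives 0.107). Ccl22 was at 5.79 CPM in the ApcMin/+ section and 6.45, 7.31 and 7.19 in the adenomas, and at 5.90 in the AOM/DSS section and 13.5, 30.0 and 15.1 in the adenomas. The AOM/DSS adenomas were the 3 highest libraries, with a log2 difference from the ApcMin/+ adenomas of 1.48 ± 0.33 (adjusted p = 0.0289) that was 1.04 ± 0.19 without AOM/DSS adenoma 2 (adjusted p = 0.0282). It was lost without any of the 3 ApcMin/+ adenomas (highest adjusted p over the alternatives 0.0981). Ccl22, Cx3cl1 and Ccl17 are successive protein-coding neighbours in the RefSeq annotation. Over both models Ccl17 rose and Cx3cl1 fell.

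Their receptor Ccr4, carried by helper and regulatory T cells, was at 0.917 CPM in the ApcMin/+ section and 0.681, 0.133 and 0.137 in the adenomas, and at 1.35 in the AOM/DSS section and 2.40, 5.28 and 3.71 in the adenomas. Adenomas were below the section in ApcMin/+ and above it in AOM/DSS. The log2 difference between the adenomas was 3.56 ± 0.72 (adjusted p = 0.0213). With AOM/DSS adenoma 2 left out it was 3.25 ± 0.76 (adjusted p = 0.0470). It was lost only without ApcMin/+ adenoma 2 among 6 refits without an adenoma (highest adjusted p over the alternatives 0.0780). The eotaxin genes Ccl11 and Ccl24, ligands of the eosinophil receptor CCR3, were not called. Ccl11 was at 24.4 CPM in the ApcMin/+ section and 8.08, 13.2 and 16.9 in the adenomas, and at 14.4 in the AOM/DSS section and 13.0, 5.23 and 5.37 in the adenomas, below the section in all 6. Ccl24 ranged from 0.5 to 2.27 CPM and Ccl1 from 0 to 0.480 CPM over the 8 libraries. Ccr3 was at 2.01 CPM in the ApcMin/+ section and 0.681, 0.443 and 1.24 in the adenomas, and at 0.05 in the AOM/DSS section, which was 1 count, and 1.03, 0.694 and 0.341 in the adenomas. Ccr8, a receptor of CCL1 and, in mice, of CCL8, was at 0.229 CPM in the ApcMin/+ section and 0.182, 0.0886 and 0.137 in the adenomas, and at 0.05 in the AOM/DSS section, again 1 count, and 0.429, 1.28 and 0.597 in the adenomas. Neither receptor was called in any comparison (for Ccr8 between the adenomas, 2.44 ± 0.68, adjusted p = 0.0504).

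Of the ligands of lymphoid tissue, Ccl19 and Ccl21a were highest in the ApcMin/+ section. Ccl19, a CCR7 ligand, was at 2.98 CPM in the ApcMin/+ section and 0.454, 0.133 and 0.0916 in the adenomas, and at 0.5 in the AOM/DSS section and 0.257, 0.694 and 0.213 in the adenomas. The ApcMin/+ adenomas were all below their section and the AOM/DSS adenomas spanned theirs. It fell by 3.69 ± 0.93 on the log2 scale in ApcMin/+ (adjusted p = 0.0440), the only member called lower there with all libraries, and the call held in 1 of 6 refits without an adenoma, the one without AOM/DSS adenoma 2 (highest adjusted p over the alternatives 0.115). Over both models Ccl19 was called lower without AOM/DSS adenoma 2 (-2.71 ± 0.78, adjusted p = 0.0365) and not with all libraries (-2.44 ± 0.91, adjusted p = 0.0728). Ccl21a, another CCR7 ligand, was at 103 CPM in the ApcMin/+ section and 26.4, 24.0 and 26.2 in the adenomas, and at 49.9 in the AOM/DSS section and 19.7, 22.4 and 3.54 in the adenomas. All adenomas were below their section, and every AOM/DSS adenoma was below every ApcMin/+ adenoma. Over both models it fell by 1.87 ± 0.50 on the log2 scale (adjusted p = 0.0252), a call lost without either section and without ApcMin/+ adenoma 1 or 2 (highest adjusted p over the alternatives 0.182). Ccl21b, a near-identical copy, was at 0.516 CPM in the ApcMin/+ section and 0.182, 0 and 1.19 in the adenomas, and at 1.95 in the AOM/DSS section and 1.42, 2.24 and 0.341 in the adenomas, and reads shared between the copies cannot be assigned with certainty. Ccr7 was at 3.67 CPM in the ApcMin/+ section and 3.31, 3.19 and 3.76 in the adenomas, and at 3.20 in the AOM/DSS section and 4.42, 14.6 and 7.04 in the adenomas. The AOM/DSS adenomas were above all other libraries without a call (log2 difference between the adenomas 1.34 ± 0.45, adjusted p = 0.0797). Without AOM/DSS adenoma 2 the difference was 0.75 ± 0.30 (adjusted p = 0.155).

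Cxcl13, which forms B cell follicles, was at 30.7 CPM in the ApcMin/+ section and 7.54, 11.3 and 7.97 in the adenomas, and at 10.3 in the AOM/DSS section and 9.10, 42.6 and 12 in the adenomas. Its receptor Cxcr5 was at 4.81 CPM in the ApcMin/+ section and 0.681, 0.133 and 0.229 in the adenomas, and at 3.00 in the AOM/DSS section and 1.93, 19.3 and 1.83 in the adenomas. Adenoma 2 of AOM/DSS was far above its section for both genes. Adenomas 1 and 3 were below the section for Cxcr5 and on either side of it for Cxcl13. Cxcr5 was higher in AOM/DSS than in ApcMin/+ adenomas by 4.44 ± 1.20 (adjusted p = 0.0465), and by 2.42 ± 0.65 without AOM/DSS adenoma 2, which was not called (adjusted p = 0.0644). The call held in 1 of 6 refits without an adenoma, the one without AOM/DSS adenoma 3. In ApcMin/+ adenomas against section neither gene was called with all libraries (Cxcl13 -1.78 ± 0.76, adjusted p = 0.135, and Cxcr5 -3.77 ± 1.38, adjusted p = 0.0969). Both were called lower there without AOM/DSS adenoma 2, which enters that comparison only through the spread (Cxcl13 -1.78 ± 0.30, adjusted p = 0.0270, and Cxcr5 -3.77 ± 0.73, adjusted p = 0.0324). Over both models Cxcr5 was also called lower without that library (-2.55 ± 0.79, adjusted p = 0.0461) and not with it (-2.08 ± 1.5, adjusted p = 0.315).

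Cxcl12, the stromal ligand that retains leukocytes, was at 143 CPM in the ApcMin/+ section and 25.9, 25.8 and 60.1 in the adenomas, and at 69.7 in the AOM/DSS section and 38.1, 39.9 and 15.9 in the adenomas. All adenomas were below both sections. It fell by 1.58 ± 0.42 on the log2 scale over both models (adjusted p = 0.0256), a call lost without either section and without ApcMin/+ adenoma 1 or 2 (highest adjusted p = 0.252). Its signalling receptor Cxcr4 was at 11.6 CPM in the ApcMin/+ section and 20.5, 17.3 and 18.4 in the adenomas, and at 14.8 in the AOM/DSS section and 15, 53.5 and 21.3 in the adenomas. Its scavenging receptor Ackr3 was at 22.5 CPM in the ApcMin/+ section and 30.2, 52.6 and 46.4 in the adenomas, and at 21.5 in the AOM/DSS section and 56.5, 25.3 and 25.4 in the adenomas. Both receptors were above the section in every adenoma, as were 30.1% of all genes, while the ligand was below it. For Cxcr4 in AOM/DSS adenoma 1 the excess was small, 15 against 14.8 CPM in the section. Neither receptor was called over both models (0.85 ± 0.45, adjusted p = 0.183, and 0.83 ± 0.37, adjusted p = 0.117). The smooth muscle and epithelial sums given above were lower than in the sections in the same 6 adenomas as Ccl28, Ccl6, Cxcl12, Cx3cl1 and Ccl21a, and their part in these falls was not tested.

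**Figure D4:**
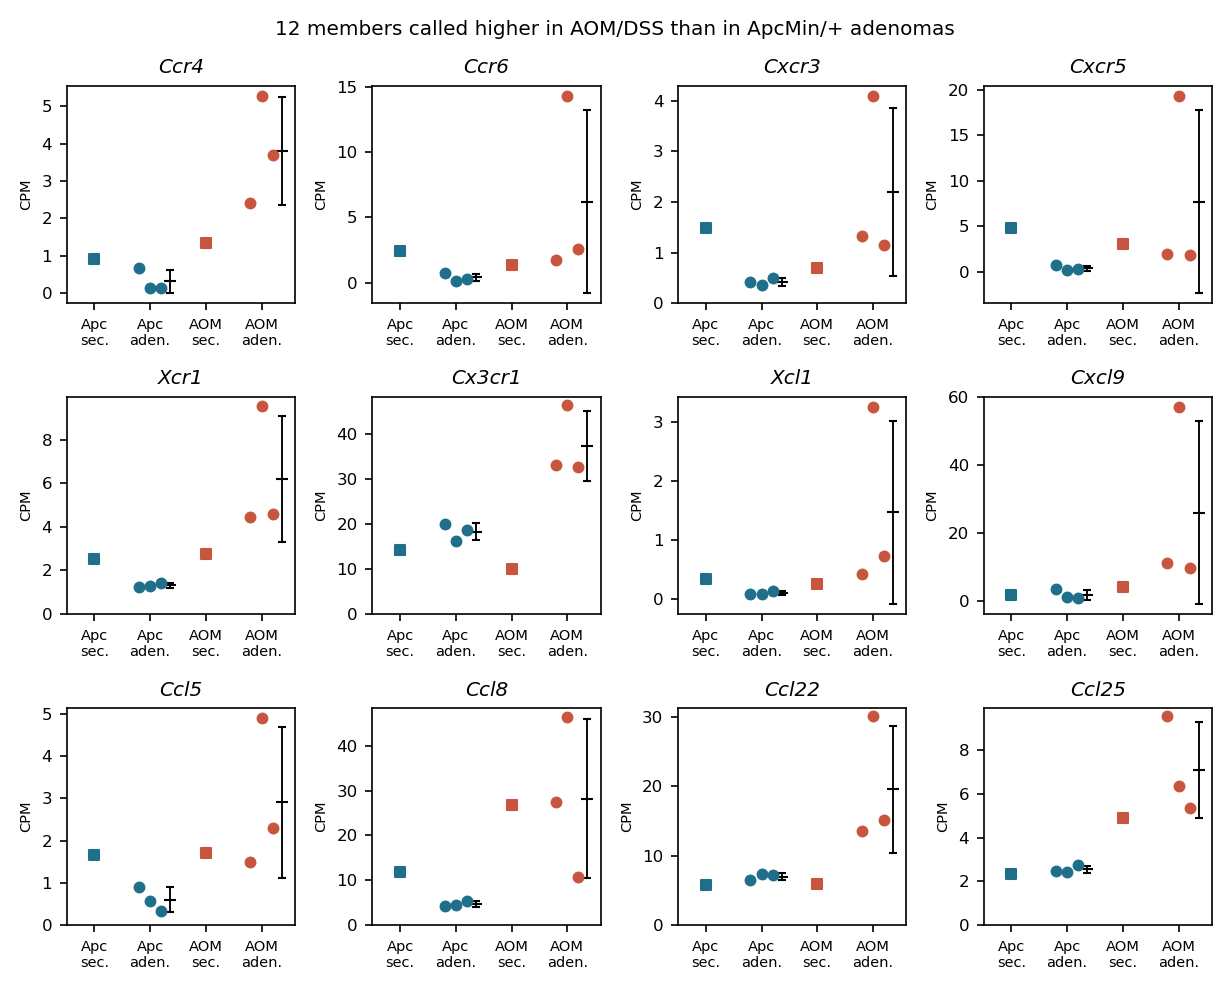
CPM of 12 members called higher in AOM/DSS than in ApcMin/+ adenomas, by library (blue ApcMin/+, red AOM/DSS, squares sections, circles adenomas 1 to 3 from left to right, black mean ± SD of 3 adenomas). AOM/DSS adenoma 2 is the highest library for all but Ccl25, and for Cxcr5 it is at 19.3 CPM beside 1.93 and 1.83.

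The remaining members called between the adenomas belonged to B cell, T cell and dendritic cell traffic. Ccr6, the CCL20 receptor of B cells and of IL-17-producing T cells, was at 2.41 CPM in the ApcMin/+ section and 0.726, 0.177 and 0.321 in the adenomas, and at 1.35 in the AOM/DSS section and 1.76, 14.3 and 2.60 in the adenomas. The log2 difference between the adenomas was 3.91 ± 0.99 (adjusted p = 0.0396). With AOM/DSS adenoma 2 left out it was 2.41 ± 0.62, not called (adjusted p = 0.0589). That call held in 2 of 6 refits without an adenoma, those without AOM/DSS adenoma 1 or 3.

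Cxcl9 and Cxcl10 are interferon-induced ligands of CXCR3. Cxcl9 was at 1.95 CPM in the ApcMin/+ section and 3.59, 1.11 and 1.01 in the adenomas, and at 4.10 in the AOM/DSS section and 11.2, 57.1 and 9.81 in the adenomas. Cxcl10 was at 1.09 CPM in the ApcMin/+ section and 2.54, 1.11 and 1.24 in the adenomas, and at 3.40 in the AOM/DSS section and 6.01, 27.1 and 3.84 in the adenomas. For both ligands the AOM/DSS adenomas were above every other library. Cxcl9 was higher in AOM/DSS than in ApcMin/+ adenomas by 3.77 ± 0.90 (adjusted p = 0.0340) and by 2.47 ± 0.59 without AOM/DSS adenoma 2 (adjusted p = 0.0494), a call lost without any of the 3 ApcMin/+ adenomas (highest adjusted p over the alternatives 0.122). The Cxcl10 difference was 2.91 ± 0.82 (adjusted p = 0.0515). Cxcr3, on effector T cells, was at 1.49 CPM in the ApcMin/+ section and 0.409, 0.355 and 0.504 in the adenomas, and at 0.701 in the AOM/DSS section and 1.33, 4.11 and 1.15 in the adenomas. It was higher in AOM/DSS adenomas by 2.36 ± 0.61 (adjusted p = 0.0418) and by 1.55 ± 0.44 without AOM/DSS adenoma 2, not called (adjusted p = 0.0752), and the call held only without AOM/DSS adenoma 3 among 6 such refits. Of 12 interferon-axis genes tested, 9 were higher in AOM/DSS than in ApcMin/+ adenomas and none lower, with a median log2 difference of 2.17. Against the sections none was called in either model, with medians of -0.21 in ApcMin/+ and 0.29 in AOM/DSS. The median of the difference between these changes was 0.43, with none called. These values include AOM/DSS adenoma 2, and none without it is given for this list.

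Xcl1, lymphotactin, and Xcr1, its receptor on cross-presenting dendritic cells, were both higher in AOM/DSS adenomas. Xcl1 was at 0.344 CPM in the ApcMin/+ section and 0.0908, 0.0886 and 0.137 in the adenomas, and at 0.250 in the AOM/DSS section and 0.429, 3.25 and 0.725 in the adenomas. The Xcl1 log2 difference was 3.72 ± 0.95 (adjusted p = 0.0404). With AOM/DSS adenoma 2 left out it was 2.39 ± 0.67, not called (adjusted p = 0.0729), and the call held only without AOM/DSS adenoma 1 among 6 such refits. Xcr1 was at 2.52 CPM in the ApcMin/+ section and 1.23, 1.29 and 1.42 in the adenomas, and at 2.75 in the AOM/DSS section and 4.46, 9.55 and 4.61 in the adenomas. The ApcMin/+ adenomas varied little and all lay below both sections, and all AOM/DSS adenomas lay above them. Its difference was 2.24 ± 0.39 (adjusted p = 0.0146), the smallest adjusted p among members in this comparison, and 1.79 ± 0.28 without AOM/DSS adenoma 2 (adjusted p = 0.0207). The Xcr1 call was lost without ApcMin/+ adenoma 1 or 2 (highest adjusted p over the alternatives 0.0671).

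**Figure D5:**
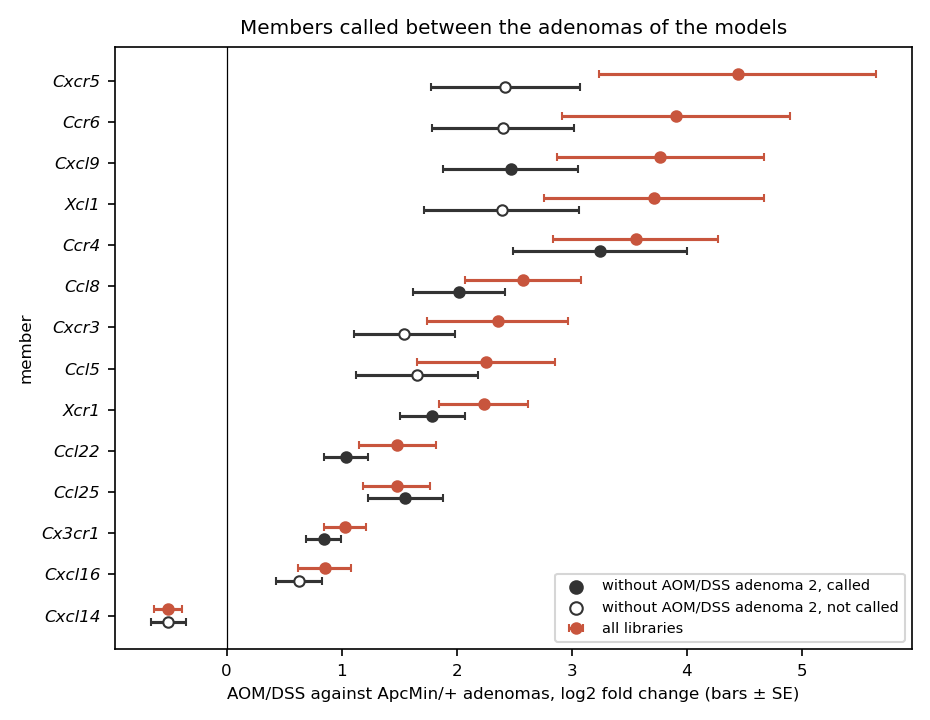
Log2 fold change (± SE) of AOM/DSS against ApcMin/+ adenomas for the 14 members called with all libraries (red), beside the value without AOM/DSS adenoma 2 (black, filled where called). Without that library 7 of the 14 remain called, and Cxcr5 moves from 4.44 to 2.42.

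As a class, the 18 receptors had a median log2 fold change of -0.65 in ApcMin/+ adenomas against section (7 positive and 11 negative, none called) and of 1.46 in AOM/DSS adenomas against section (17 positive and 1 negative, 2 called). Of all 17218 genes, 8850 were positive in ApcMin/+ (16.4% called either way) and 9992 in AOM/DSS (5.01% called). Without AOM/DSS adenoma 2 the receptors' median in AOM/DSS was 0.87 (16 positive and 2 negative). There 1 receptor was called, Cx3cr1, beside 1.76% of all genes. In ApcMin/+ all 3 adenomas were above the section for 18 members (34.6%, beside 41.3% of all genes) and below it for 24 (46.2%, beside 40.0%). In AOM/DSS they were above it for 32 (61.5%, beside 41.2%) and below it for 6 (11.5%, beside 31.3%). All 6 adenomas were above the section of their own model for 15 members (28.8%, beside 30.1% of all genes) and below it for 6 (11.5%, beside 24.2%). In 10 members every ApcMin/+ adenoma was below its section while every AOM/DSS adenoma was above its own. These were Ccl12, Ccr2, Ccr3, Ccr4, Ccr6, Ccr8, Ccr9, Cxcr3, Xcl1 and Xcr1, or 19.2% of the members tested, and 4.97% of all genes had that pattern. No member had the reverse pattern, which 2.53% of all genes showed. None of the 10 passed the test of the difference between the models. Between the adenomas themselves, 20 members were higher in all 3 AOM/DSS adenomas than in any ApcMin/+ adenoma (38.5%, beside 22.4% of all genes) and 4 were lower (7.69%, beside 20.6%). Without AOM/DSS adenoma 2, 7 of 51 members tested (13.7%) were called higher and none lower, close to the 11.8% of all genes called. The members' median log2 difference was then 0.15 in place of 0.80.

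Markers of several leukocyte types, but not of neutrophils, moved in the same direction between the adenomas. In AOM/DSS relative to ApcMin/+ adenomas, 7 of 8 B cell markers, 7 of 12 T and NK cell markers, 4 of 8 dendritic cell markers and 3 of 11 monocyte and macrophage markers were higher, and none of these was lower. The marker counts in this paragraph include AOM/DSS adenoma 2, and no counts without it are given. Of 10 neutrophil markers none was higher and 2 were lower, with 9 negative and a median log2 difference of -0.97. Of 5 plasma cell markers none was higher and 1 was lower, with 4 positive. The 12 T and NK cell markers summed to 32.9 CPM in the ApcMin/+ section, 47.2, 34.6 and 26.4 in its adenomas, 38.0 in the AOM/DSS section and 70.1, 172 and 77.5 in its adenomas. Dendritic cell markers, 8 in all, summed to 36.9 CPM in the ApcMin/+ section, 38.8, 30.1 and 28.9 in its adenomas, 29.0 in the AOM/DSS section and 82.0, 183 and 82.7 in its adenomas. No B cell, T and NK cell or dendritic cell marker was at 0 in any library. The eosinophil marker Epx was at 0 in 5 of the 8 libraries. The part of leukocyte number in the receptor results was not tested. Of 20 genes that act downstream of chemokine receptors, 6 were higher and 1 lower in AOM/DSS than in ApcMin/+ adenomas, with a median log2 difference of 0.42. Among them was Arrb2, a β-arrestin that ends receptor signalling, at 22.7, 18.4 and 17.4 CPM in ApcMin/+ and 41.6, 53.6 and 40.5 in AOM/DSS adenomas (1.21 ± 0.17, adjusted p = 0.00921).

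Chemokine genes outside the naming rule added a scavenger and a relative. Ackr4, which removes CCL19, CCL21 and CCL25, was at 11.5 CPM in the ApcMin/+ section and 1.32, 1.64 and 3.25 in the adenomas, and at 11 in the AOM/DSS section and 0.343, 0.587 and 0.0853 in the adenomas. The sections were alike in level and all adenomas were below them. It fell by 5.03 ± 0.77 on the log2 scale in AOM/DSS (adjusted p = 0.0309), and the ApcMin/+ change was -2.47 ± 0.73 (adjusted p = 0.0589). Between the adenomas Ackr4 was lower in AOM/DSS (-2.62 ± 0.66, adjusted p = 0.0379). Rarres2, chemerin, was at 87.2 CPM in the ApcMin/+ section and 27.4, 30.3 and 41.9 in the adenomas, where it fell (-1.39 ± 0.28, adjusted p = 0.0291). It was at 71.7 in the AOM/DSS section and 87.4, 101 and 67.1 in the adenomas, and the change was not called (adjusted p = 0.615). Between the adenomas Rarres2 was higher in AOM/DSS (1.36 ± 0.22, adjusted p = 0.0122).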

How the data were processed

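The authors deposited estimated counts and FPKM values per gene for 8 single-read libraries (TruSeq RNA kit, Trizol extraction, per the labels' protocols), aligned to mm9 per the submitters' processing notes. For aligner, counter, annotation and strand the sources used here give nothing, and overlapping or antisense genes cannot be told apart. A table of ratios was not used. The lowest deposited estimated count and FPKM were 1 in every library, so 1 was subtracted from both and the estimated counts were rounded to whole numbers. In 27 rows the symbol had become a date.

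Tests used edgeR 4.0.16 in R 4.3.3 (TMM scaling, filter by expression with minimum count 10 and minimum total 15, quasi-likelihood test, Benjamini-Hochberg adjustment over 17218 genes). A fit with a mean per group left 4 residual degrees of freedom, and the fit of both models with terms for model and tissue left 5. Each section is a lone library, assumed to vary like the adenomas. The labels do not say that adenomas came from separate mice, so p-values measure only how these samples vary, which may be technical. SE is the log2 fold change over the square root of F. The script was checked on simulated counts.

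Members, gene lists and tests were chosen with earlier results of these data known. Members called in any comparison, the 12 of highest mean FPKM, fixed receptors and their ligands are given by library, and non-member lists by counts and up to 4 genes. A member and a listed gene are counted in the totals but not reported here. A few further genes were named after their values were seen. Intervals cover counting error only, and a count of 0 allows up to 3 counts (0.128 to 0.172 CPM). Alternatives were DESeq2 1.42.0, limma 3.58.1 on log2 FPKM with pseudocounts of 0.1 and 1, other scalings and filters, no subtraction, fewer libraries, a replicate block, and leaving out each library. Promoter sequences are from RefSeq (GRCm38.p6), a later build than the files', and no protein sequence was used here.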

Additional observations from a re-analysis of the deposited data

Results flagged for a closer look

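In 10 members, every ApcMin/+ adenoma was below its section while every AOM/DSS adenoma was above its own. The test of the difference (log2 change in AOM/DSS minus log2 change in ApcMin/+, edgeR's quasi-likelihood test) gave 2.36 for Ccl12, 1.59 for Ccr2, 4.98 for Ccr3, 3.00 for Ccr4, 4.74 for Ccr6, 4.51 for Ccr8, 3.22 for Ccr9, 3.44 for Cxcr3, 4.17 for Xcl1 and 2.11 for Xcr1. Adjusted p-values were between 0.542 and 0.641, so none passed. The AOM/DSS section held 1 count of Ccr3 and 1 of Ccr8. The ratio of summed AOM/DSS adenoma counts to that count was 13.7 for Ccr3 (exact 95% counting interval 2.34 to 554) and 14.6 for Ccr8 (2.51 to 590). Each section is a lone library, so the spread between sections was not measured.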

How the results depend on the processing

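Leaving out each library in turn gave 1 to 9 members for ApcMin/+ adenomas against section (5 with all libraries), 0 to 6 for AOM/DSS adenomas against section (5), 0 to 12 between the adenomas (14) and 5 to 14 over both models (11). The count of 0 for AOM/DSS came without AOM/DSS adenoma 1, when edgeR called no gene of the table, and that between the adenomas without ApcMin/+ adenoma 2. The difference between the models stayed at 0 members in each edgeR and limma alternative. DESeq2 called 13 members for ApcMin/+ (26% of those with an adjusted p, beside 27.6% of all such genes), 11 for AOM/DSS (22%, beside 18%), 17 for both models (35.4%, beside 38.6%) and 2 for the difference between the models (4.26%, beside 1.33%). For AOM/DSS against section, limma on FPKM without a filter called 2 (3.7%, beside 3.43% of all genes). The fit of the compared libraries alone also called 2 there (3.92%, beside 4.76%). Between the adenomas, limma called 8 with a pseudocount of 1 (15.7%, beside 16% of all genes) and 4 without a filter (7.41%, beside 8.6%). With a pseudocount of 0.1 and the filter it called 10 (19.6%, beside 16%). With the adenoma number as a replicate block edgeR called 0 members there (541 of all genes). Correlations of same-numbered adenomas, taken as deviations from the mean of their model's adenomas, were -0.109, -0.322 and -0.278. The labels do not pair the numbers across models, so the numbers were not taken as pairs. All other alternatives stayed within 1.5 times the count. Of 35 calls of single members, 2 held in every alternative, both of Cxcl14, and none reversed. Of 547 values under alternatives, 386 stayed called and 161 did not. Ccr3 and Ccr8 had 1 count in the AOM/DSS section and Cxcl15 1 count in the ApcMin/+ section, so their ratios have wide counting intervals. FPKM per count varied over 1.5-fold between libraries for 4 of 46 members, Ccl12 (1.69), Ccl25 (1.59) and Ccl9 (1.95) among them. Their FPKM levels are thus less certain. Whether their CPM levels are affected as well was not tested.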
